A study of Homo sapiens with 12 samples.

Results

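Cells of the prostate cancer line LNCaP-Abl that expressed SPOP changed at residue F133 (SPOP F133V or SPOP F133L, the F133 mutants below) were compared with cells of the same line that expressed SPOP F102C. The members of the comparison were 6 of the 12 arrays of the study, chosen by their titles: 2 arrays of SPOP F133V, 2 of SPOP F133L and 2 of SPOP F102C. The measured features were 12227 genes, each read by a named probe that was detected (detection p under 0.05) on at least 2 of the 12 arrays. The other 6 arrays, 3 of control vector and 3 of wild-type SPOP, were not part of the contrast, but they entered the normalization, the detection filter and the estimate of the spread between arrays, and they serve below as reference levels. All 5 groups were LNCaP-Abl cells, a line derived from LNCaP that grows without androgen, kept in RPMI1640 medium with charcoal-stripped serum, which is low in steroid hormones. All were transfected, and expression of the construct was switched on with doxycycline in every group, control vector included. The labels describe no removal of the cells' own SPOP, and they do not say whether replicates came from separate lines or clones. The study's text gives wild-type against mutant SPOP as its question. A comparison of the mutants with each other follows from its design.

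SPOP is the adaptor that brings substrates to a CUL3 ubiquitin ligase: its MATH domain binds the substrate, its BTB domain binds CUL3, and the bound protein is marked for degradation or otherwise regulated. The changes found in prostate cancer cluster in the groove of the MATH domain that holds the substrate, and the phenylalanines F102 and F133 both lie there. F133V and F133L put the aliphatic residues valine and leucine in place of an aromatic one, and F102C puts a cysteine. Known substrates in prostate cells include chromatin and steroid receptor cofactors such as TRIM24, BRD2, BRD3 and DEK, and androgen receptor target genes are a common readout of SPOP function.

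Each array detected 17485 to 19677 of its 47323 probes. Both SPOP F133V arrays lay at the low end, with 17485 and 17864 detected probes and the lowest median intensities (109 and 114.6), against 18482 and 19543 on the SPOP F102C arrays and 18530 and 18651 on the SPOP F133L arrays. Of 23 luminal epithelium markers, 18 passed the detection filter, and each of these 18 was detected on all 6 mutant arrays. The summed linear level of the 18 was 26100 to 26700 on SPOP F102C arrays and 26100 to 27500 on F133 arrays. The luminal markers left out included KRT7, detected on no mutant array, and CLDN3, not detected on all 6. Of markers of other cell types, 3 of 14 basal, 2 of 14 neuroendocrine, 1 of 14 fibroblast and 5 of 15 immune genes were tested, and defining ones such as KRT5, KRT14, CHGA, SYP, COL1A1 and CD3E were detected on none of the 6 arrays. No 2 arrays held identical intensities.

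No gene passed the threshold between the F133 mutants and SPOP F102C. The contrast was the mean of SPOP F133V and SPOP F133L, each at equal weight, minus SPOP F102C, tested with limma on the normalized log2 level and called at a Benjamini-Hochberg adjusted p under 0.05. Of 12227 genes, 0 were called higher (0%) and 0 lower (0%), and the lowest adjusted p was 0.0598. At an unadjusted p under 0.05 there were 1204 genes (9.85%), of which 472 (3.86%) were higher and 732 (5.99%) lower in the F133 mutants. In 861 genes (7.04%) all 4 F133 arrays lay above both SPOP F102C arrays, and in 1214 (9.93%) all 4 lay below. The differences were small: they ran from -0.33 at the 5th percentile of the genes to 0.29 at the 95th. The median gene had a standard error of 0.13 and a 95% interval, for 1 gene taken alone, of 0.29 on either side of its difference. A call also had to pass the adjustment over 12227 genes. SGK1 at 0.76 ± 0.10 and IGSF5 at -1.0 ± 0.14 did not pass it, so shifts well above 0.29 could also go uncalled with these arrays.

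**Figure D1:**
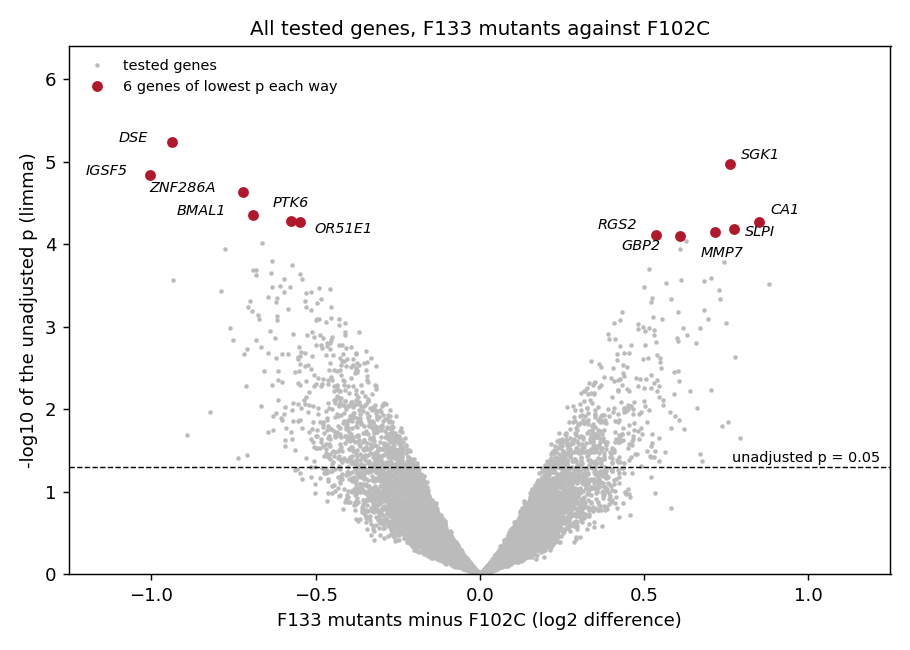
Each grey point is 1 of the 12227 tested genes, with the log2 difference between the F133 mutants and SPOP F102C on the x axis and -log10 of limma's unadjusted p on the y axis. The dashed line marks an unadjusted p of 0.05, and the 12 red genes, 6 each way, have the lowest p-values, from DSE and SGK1 (both with an adjusted p of 0.0598) downward.

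The count of calls depended on how the signal was processed. With the authors' deposited log2 values 28 genes were called (13 higher, 15 lower), with a normexp offset of 50 there were 31 (15 and 16), without background correction 54 (22 and 32), and with an intensity trend and robust prior 43 (19 and 24), all by limma at an adjusted p under 0.05. With arrays set to equal medians over all probes the split became one-sided, 0 higher and 38 lower, and the median of all genes moved from -0.02 to -0.21. With only the 6 mutant arrays in the fit, with the replicate block and in each of the 12 fits without 1 array, 0 genes were called. The genes called under the first 4 of these settings overlapped in 16: ERRFI1, GADD45G, GBP2, MMP7, PGC, RGS2, SGK1, SLC26A3 and SLPI were higher in the F133 mutants, and CCDC14, COQ5, GATB, HENMT1, LRRCC1, OARD1 and RNFT1 were lower. These 16 were singled out after their values were seen.

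**Figure D2:**
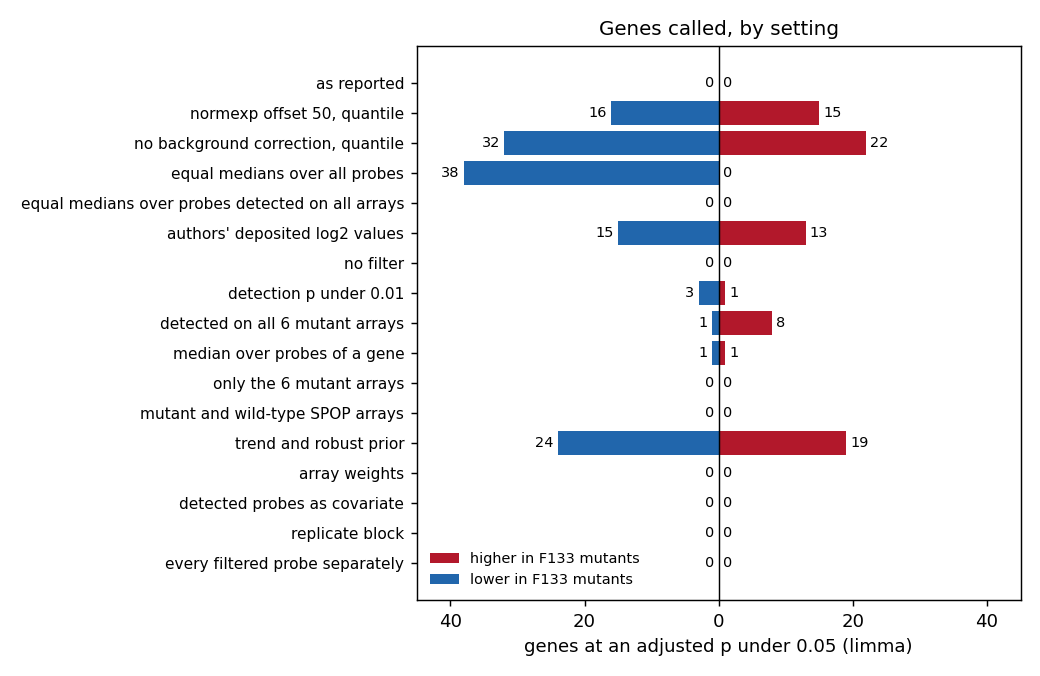
Bars give the number of genes called by limma at an adjusted p under 0.05, higher in the F133 mutants to the right and lower to the left, for the reported setting and 16 alternatives that keep all arrays or a stated subset. The reported setting has 0 on both sides, and the largest counts are 54 without background correction (22 higher, 32 lower) and 43 with a trend and robust prior.

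SGK1, a kinase induced by serum and by glucocorticoids and androgens that promotes sodium uptake, had the lowest p among the genes that were higher in the F133 mutants. Its level was 8.19 and 8.02 on the SPOP F102C arrays, 8.76 and 8.71 on the SPOP F133V arrays and 8.96 and 9.05 on the SPOP F133L arrays. All 4 F133 arrays lay above both SPOP F102C arrays, a difference of 0.76 ± 0.10 (SE, 4 against 2 arrays; 95% interval 0.54 to 0.99; limma adjusted p = 0.0598). Control vector and wild-type SPOP stood lower than every mutant, at means of 6.97 ± 0.10 and 6.76 ± 0.12 (SD, n = 3 each). The 2 other SGK1 probes that passed the filter gave differences of 0.50 and 0.61 in the same direction.

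CA1, the cytosolic carbonic anhydrase best known from red cells, read 5.53 and 5.44 with SPOP F102C, 6.64 and 6.55 with SPOP F133V and 6.31 and 5.84 with SPOP F133L. The difference was 0.85 ± 0.14 (limma adjusted p = 0.0804), and the SPOP F133L arrays lay between those of the other mutants without overlapping them. Wild-type SPOP had the highest mean level, 6.90 ± 0.17, and the probe was detected on none of the 3 control vector arrays. SLPI, a secreted inhibitor of leukocyte proteases, was at 7.05 and 7.09 with SPOP F102C and between 7.72 and 7.90 on the 4 F133 arrays, a difference of 0.77 ± 0.13 (limma adjusted p = 0.0804).

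MMP7, the secreted protease matrilysin, read 8.21 and 8.55 with SPOP F102C and from 8.94 to 9.26 on the F133 arrays (difference 0.72 ± 0.12, limma adjusted p = 0.0804). Its second probe gave a difference of 0.75. With SPOP F102C the mean of MMP7, 8.38 ± 0.24 (SD, n = 2), was close to control vector (8.16 ± 0.13) and wild-type SPOP (8.18 ± 0.07). RGS2, which switches off G protein signalling by speeding GTP hydrolysis, and GBP2, an interferon-inducible GTPase, had differences of 0.54 ± 0.09 and 0.61 ± 0.10 (limma adjusted p = 0.0804 for both). The arrays of SPOP F133V and SPOP F133L did not overlap for either gene, but SPOP F133L minus SPOP F133V passed the threshold for neither (limma adjusted p = 0.0556 and 0.192). RGS2 read 7.72 and 7.81 with SPOP F102C, 7.94 and 7.90 with SPOP F133L and 8.68 on both SPOP F133V arrays. GBP2 read 7.58 and 7.41 with SPOP F102C, 7.93 and 7.79 with SPOP F133V and 8.31 and 8.39 with SPOP F133L.

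**Figure D3:**
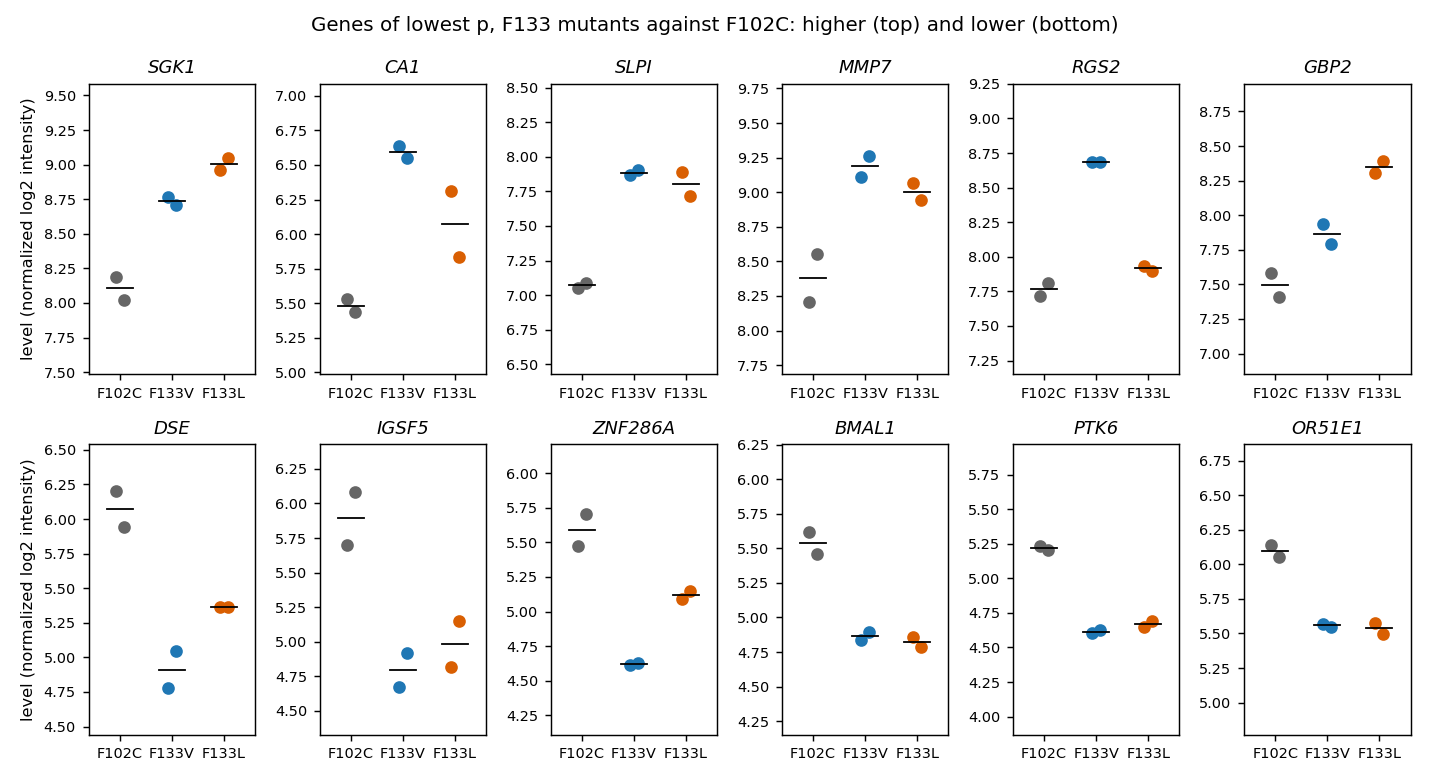
Each panel shows 1 gene, each point 1 array and each bar the mean of 2 arrays, on the normalized log2 intensity scale, and all panels span the same range. In the top row all 4 F133 arrays lie above both SPOP F102C arrays, and in the bottom row all 4 lie below, as the choice by p makes likely, while the SPOP F133V and SPOP F133L arrays overlap for SLPI, IGSF5, BMAL1 and OR51E1 and not for the other 8 genes, of which PTK6 was below detection on all 4.

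The genes of lowest p in the other direction were dimmer, and most were near the detection limit in the F133 mutants. DSE, an enzyme that converts chondroitin sulfate to dermatan sulfate, read 6.20 and 5.94 with SPOP F102C, 4.78 and 5.05 with SPOP F133V and 5.36 on both SPOP F133L arrays. Its difference was -0.94 ± 0.12 (95% interval -1.20 to -0.67; limma adjusted p = 0.0598), and the probe was detected on both SPOP F133L arrays but on neither SPOP F133V array. Control vector and wild-type SPOP stood with SPOP F102C, at 6.02 ± 0.15 and 6.05 ± 0.06 (SD, n = 3 each).

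IGSF5, an immunoglobulin superfamily protein of cell junctions, read 5.70 and 6.08 with SPOP F102C and between 4.67 and 5.15 on the F133 arrays, of which 1 of 4 detected it. Its difference was -1.0 ± 0.14 (limma adjusted p = 0.0598), which sets SPOP F102C against readings of which most were below detection. Here SPOP F102C stood apart from control vector and wild-type SPOP, which were both at 4.94. ZNF286A, a zinc finger gene with a close copy in the genome whose signal the probe may share, read 5.48 and 5.70 with SPOP F102C, 4.61 and 4.63 with SPOP F133V (not detected) and 5.09 and 5.15 with SPOP F133L. Its difference was -0.72 ± 0.11 (limma adjusted p = 0.0707).

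BMAL1, a transcription factor of the circadian clock, and PTK6, a cytoplasmic tyrosine kinase related to Src, were detected on both SPOP F102C arrays and on none of the 4 F133 arrays. Their levels are therefore only bounded in the F133 mutants: BMAL1 was at least 1.40-fold lower and PTK6 at least 1.12-fold lower, each with a limma adjusted p of 0.0804. PTK6 was detected on no array of the other 4 groups, so it passed the filter only through SPOP F102C, where it was high, and its p and direction were favoured by the filter. The bound sets the mean of SPOP F102C against the lowest level of a detected probe on each F133 array. Measured BMAL1 levels were 5.62 and 5.46 with SPOP F102C and 4.78 to 4.90 on the F133 arrays, and those of PTK6 were 5.23 and 5.2 against 4.60 to 4.69. OR51E1, an olfactory receptor family member known as a prostate-enriched G protein-coupled receptor, was detected on all 6 arrays. It read 6.14 and 6.06 with SPOP F102C and 5.50 to 5.58 on the F133 arrays, a difference of -0.55 ± 0.09 (limma adjusted p = 0.0804). The F133 arrays lay close together for this gene, while wild-type SPOP (6.15 ± 0.09) stood with SPOP F102C and control vector was lower (5.07 ± 0.02).

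Detection differed between the groups at the dim end of the scale, where the SPOP F133V arrays detected the fewest probes. Of the 16 genes with an adjusted p under 0.1, 9 were detected on all 6 mutant arrays, against 8977 of all 12227 tested genes. Among the genes detected on all 6 mutant arrays, 9 were called when only those genes were tested, 8 higher and 1 lower. A fit that included each array's count of detected probes as a covariate called 0.

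For SPOP itself the arrays of the groups overlapped. Its detected probe read 10.16 and 10.00 with SPOP F102C, 9.90 and 9.91 with SPOP F133V and 10.04 and 10.27 with SPOP F133L, a difference of -0.05 ± 0.10 (95% interval -0.27 to 0.18; limma adjusted p = 0.930). The same probe gave 10.18 ± 0.04 with control vector and 10.13 ± 0.11 with wild-type SPOP (SD, n = 3 each). Since it did not separate control vector from wild-type SPOP either, it does not check the labels or the amount of each construct. SPOPL, the closest relative of SPOP, had a difference of -0.05 ± 0.20 with a limma adjusted p of 0.963.

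In the list of SPOP, its adaptor relatives and other parts of cullin ligases, 0 of 18 tested genes were called, and CUL3 itself was not among the 18. At an unadjusted p under 0.05, 0 were higher and 2 lower, against 3.86% and 5.99% of all genes, and the median difference was -0.04 beside -0.02 for all genes. The 2 were the BTB adaptors KLHL20 (-0.32 ± 0.10, limma adjusted p = 0.320) and KLHL12 (-0.27 ± 0.10, limma adjusted p = 0.403). KLHL9, another BTB adaptor, was at -0.18 ± 0.10, and COPS2, a subunit of the signalosome that recycles cullin ligases, at 0.29 ± 0.15. A second KLHL12 probe gave -0.03. Of 25 tested transcripts that encode reported SPOP substrates, 0 were called, 0 were higher and 1 was lower at an unadjusted p under 0.05, and the median was -0.05. That gene was SENP7, a SUMO protease, at -0.50 ± 0.20 (limma adjusted p = 0.452). Its level on the first SPOP F133V array (5.47) lay well below the other 3 F133 arrays (6.06 to 6.52) and the SPOP F102C arrays (6.57 and 6.61). Next by p in that list came DDIT3, a stress-induced transcription factor, at 0.25 ± 0.12, SIRT2, a deacetylase, at 0.28 ± 0.14 and ATF2, a stress-activated transcription factor, at -0.42 ± 0.22. A second SIRT2 probe gave -0.004. For ATF2 the first SPOP F133V array (5.12) again lay well below the other 3 F133 arrays (5.78 to 6.10). SPOP acts on the proteins of this list after translation, which transcript levels do not measure.

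The androgen-induced list leaned toward the F133 mutants without a call. Of 31 tested genes 0 were called, while 11 were higher and 0 lower at an unadjusted p under 0.05 (35.5% and 0%, against 3.86% and 5.99% of all genes), and the median difference was 0.08 beside -0.02. The 11 were SGK1, ERRFI1, PTGER4, TRPM8, EAF2, KRT18, KRT8, NDRG1, FKBP5, SLC45A3 and ABCC4. Over all 31, 20 differences were above 0 and 11 below it, down to -0.42. Against the same SPOP F102C arrays, 10 were higher and 0 lower in SPOP F133L at that p (4.15% and 5.02% of all genes). In SPOP F133V, 7 were higher and 2 lower (4.24% and 6.71% of all genes). In SPOP F133L minus SPOP F133V, 7 were higher and 0 lower, against 6.27% and 4.57% of all genes. The list was drawn up with earlier results of these data known, so its direction is not independent evidence. Less the median of all genes, its median was 0.10, and it ran from 0.045 to 0.14 over 27 alternatives. ERRFI1, a feedback inhibitor of the EGF receptor, read 9.34 and 9.37 with SPOP F102C and from 9.68 to 10.08 on the F133 arrays (0.52 ± 0.11, limma adjusted p = 0.114). PTGER4, a prostaglandin E2 receptor, read 6.96 and 7.10 with SPOP F102C, 7.30 and 7.48 with SPOP F133V and 7.77 and 7.70 with SPOP F133L (0.53 ± 0.12, limma adjusted p = 0.150). TRPM8, a cold-sensing calcium channel of prostate epithelium, was ordered in the same way, with 8.66 and 8.49, 8.83 and 9.02, and 9.25 and 9.34 (0.54 ± 0.14, limma adjusted p = 0.183). In all 3 genes the 4 F133 arrays lay above both SPOP F102C arrays, and for PTGER4 and TRPM8 the SPOP F133L arrays also lay above those of SPOP F133V, while for ERRFI1 these overlapped. EAF2, a transcription elongation cofactor, was at 0.37 ± 0.10 (limma adjusted p = 0.207); it and the members without further values were named after their values were seen.

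The classical prostate proteases of that list lay nearer 0, or below it. KLK3, which encodes prostate-specific antigen, read 6.78 and 6.53 with SPOP F102C, 6.95 and 6.81 with SPOP F133V and 6.77 and 6.87 with SPOP F133L, so the groups overlapped (0.20 ± 0.13; 95% interval -0.08 to 0.47; limma adjusted p = 0.655). TMPRSS2, a membrane-bound protease, was at 0.00 ± 0.11 (95% interval -0.23 to 0.23; limma adjusted p = 0.999). KLK2 had a difference of -0.18 ± 0.13 (limma adjusted p = 0.717), and its F133 arrays were spread on both sides of SPOP F102C. It read 6.92 and 6.90 with SPOP F102C, 6.41 and 6.58 with SPOP F133V and 6.91 and 7.03 with SPOP F133L.

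Targets that androgen and glucocorticoid receptors share gave 6 higher and 0 lower of 15 tested genes at an unadjusted p under 0.05, against 3.86% and 5.99% of all genes, with 0 called and a median of 0.16. SGK1, ERRFI1 and FKBP5 are also in the androgen-induced list, so the lists are not separate observations. FKBP5, a co-chaperone that tunes steroid receptors, read 10.59 and 10.72 with SPOP F102C and from 10.75 to 11.09 on the F133 arrays (0.31 ± 0.10, limma adjusted p = 0.320). TSC22D3, the glucocorticoid-induced leucine zipper, read 8.24 and 8.31 with SPOP F102C and from 8.56 to 8.68 on the F133 arrays (0.34 ± 0.09, limma adjusted p = 0.194). For neither gene did the F133 arrays overlap those of SPOP F102C, and SPOP F133L minus SPOP F133V was -0.02 ± 0.10 for TSC22D3. ZBTB16 and MT1X were the remaining 2 of the 6.

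**Figure D4:**
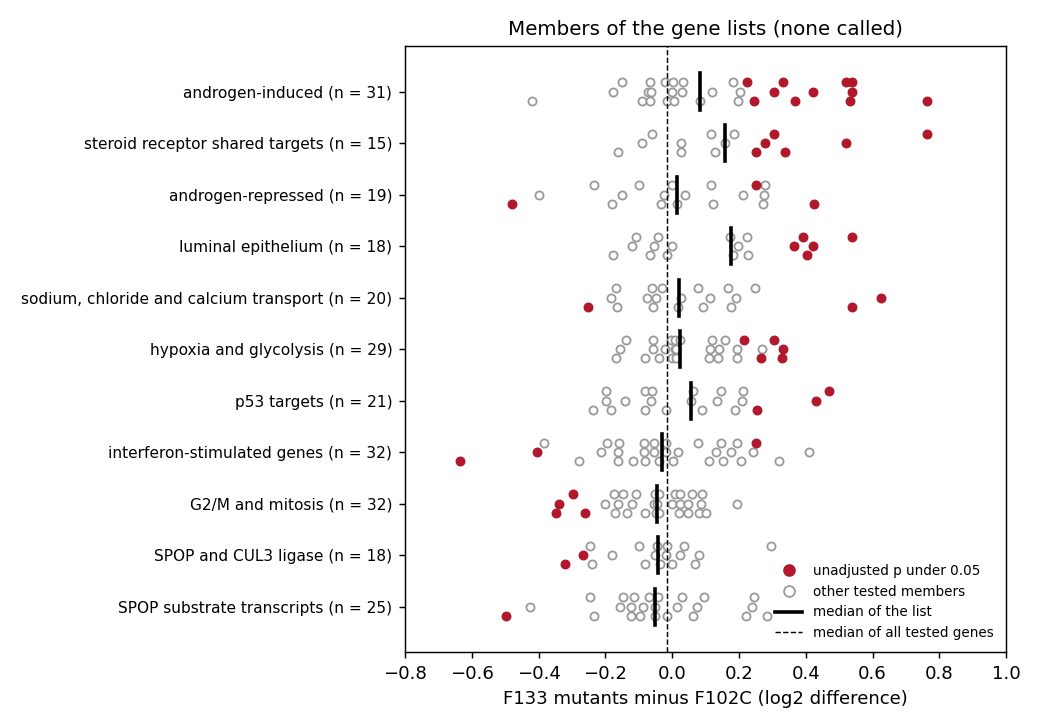
Each point is a tested member of a gene list, placed by its log2 difference between the F133 mutants and SPOP F102C; filled red points have an unadjusted p under 0.05, thick bars mark list medians and the dashed line the median of all tested genes (-0.02). The androgen-induced, steroid receptor and luminal lists have red points on the right side only (11, 6 and 5), and the mitosis, SPOP ligase and substrate lists on the left side only (4, 2 and 1).

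Androgen-repressed genes had differences on both sides of 0. Of 19 tested genes 0 were called, and the median was 0.01. At an unadjusted p under 0.05, 2 were higher and 1 lower (10.5% and 5.26%, against 3.86% and 5.99% of all genes). TMEFF2, a transmembrane protein with EGF-like and follistatin domains, read 5.95 and 6.17 with SPOP F102C, 5.86 and 5.79 with SPOP F133V and 5.18 and 5.50 with SPOP F133L (-0.48 ± 0.11, limma adjusted p = 0.159). Its control vector mean was far higher, 8.89. UGT2B28, which conjugates androgens with glucuronic acid, was at 0.43 ± 0.12 (limma adjusted p = 0.240) and SERPINI1, a neuronal serine protease inhibitor, at 0.25 ± 0.10 (limma adjusted p = 0.420). The second SERPINI1 probe gave 0.06. BCHE, butyrylcholinesterase, was detected on 1 of the 6 arrays, so no fold change is given.

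Genes of luminal epithelium gave 5 higher and 0 lower of 18 at an unadjusted p under 0.05, against 3.86% and 5.99% of all genes, with 0 called and a median of 0.18. The differences of 10 members were above 0 and those of 8 below it, down to -0.18. Less the median of all genes, the list's median was 0.19, but 0.11 without the first SPOP F102C array, 0.0745 without the second and 0.0249 with detected probes as a covariate. KRT18 read 8.0 and 8.04 with SPOP F102C and from 8.48 to 8.71 on the F133 arrays (0.54 ± 0.16, limma adjusted p = 0.265), and KRT8 read 9.07 and 9.01 and from 9.30 to 9.56 (0.42 ± 0.12, limma adjusted p = 0.264). The second KRT18 probe gave a smaller difference, 0.12. KRT19, a simple epithelial keratin, read 7.05 and 6.82 with SPOP F102C, 7.20 and 7.05 with SPOP F133V and 7.54 and 7.51 with SPOP F133L, and AGR2, a protein disulfide isomerase of secretory cells, was at 0.37 ± 0.13 (limma adjusted p = 0.400). For KRT19 the second SPOP F133V array equalled the higher SPOP F102C array after rounding (0.39 ± 0.13, limma adjusted p = 0.345). TSPAN1 was the remaining gene of the 5. KRT8 and KRT18 are also in the androgen-induced list, so the lists are not separate observations.

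Transport and signalling genes included SLC26A3, an intestinal chloride and bicarbonate exchanger and 1 of the 16 genes with an adjusted p under 0.1. It read 7.30 and 7.33 with SPOP F102C, 7.76 and 7.82 with SPOP F133V and 8.06 and 8.12 with SPOP F133L, a difference of 0.63 ± 0.11 (limma adjusted p = 0.0845). Within each mutant the 2 arrays differed by less than 0.1, and the order was SPOP F102C, SPOP F133V, SPOP F133L, with wild-type SPOP lowest of all groups (5.49 ± 0.17). Over the list of sodium, chloride and calcium transport, 0 of 20 genes were called and the median was 0.02. At an unadjusted p under 0.05, 2 were higher and 1 lower (10% and 5%, against 3.86% and 5.99% of all genes). SLC26A3 and TRPM8 were the higher genes, and TRPM8 is also in the androgen-induced list. The lower gene was ATP2B4, a calcium pump of the plasma membrane (-0.25 ± 0.11, limma adjusted p = 0.478), and the potassium channel KCNMA1 was at 0.19 ± 0.09.

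Of 29 tested genes of hypoxia and glycolysis 0 were called, and the median was 0.02. At an unadjusted p under 0.05, 5 were higher and 0 lower (17.2% and 0%, against 3.86% and 5.99% of all genes). NDRG1, a growth-restraining gene induced by both hypoxia and androgen, read 11.36 and 11.20 with SPOP F102C, 11.44 and 11.45 with SPOP F133V and 11.80 and 11.76 with SPOP F133L (0.33 ± 0.10, limma adjusted p = 0.251). NDRG1 is also in the androgen-induced list. The glycolytic enzymes ALDOA (0.33 ± 0.10, limma adjusted p = 0.275) and GPI (0.22 ± 0.09, limma adjusted p = 0.438) and the histone demethylase KDM3A (0.27 ± 0.12, limma adjusted p = 0.50) pointed the same way. Against the same SPOP F102C arrays, 9 of the 29 genes were higher and 0 lower in SPOP F133L at an unadjusted p under 0.05 (median 0.16), beside 4.15% and 5.02% of all genes. In SPOP F133V, 1 was higher and 1 lower (median 0.02), beside 4.24% and 6.71% of all genes. In SPOP F133L minus SPOP F133V, 9 of 29 were higher and 0 lower at that p, against 6.27% and 4.57% of all genes, and 0 were called.

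Among 21 tested p53 targets 0 were called, with 3 higher and 0 lower at an unadjusted p under 0.05, against 3.86% and 5.99% of all genes, and a median of 0.06. The differences of 11 members were above 0 and those of 10 below it, and the list's median less that of all genes ran from -0.0142 to 0.0728 when 1 array was left out. GDF15, a stress-induced secreted factor, was at 0.47 ± 0.15, GADD45A, a growth arrest gene, at 0.43 ± 0.17 and AEN, an apoptosis-linked nuclease, at 0.26 ± 0.11 (limma adjusted p = 0.314, 0.427 and 0.462). The 2 GADD45A probes disagreed, since the second gave -0.10. ZMAT3, an RNA-binding p53 target, was at 0.21 ± 0.12, and its other probes gave -0.08 and 0.07. CDKN1A, the cell cycle inhibitor p21, read 10.46 and 10.33 with SPOP F102C and from 10.41 to 10.85 on the F133 arrays, which overlapped (0.19 ± 0.14, limma adjusted p = 0.711).

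Interferon-stimulated genes gave 1 higher and 2 lower of 32 at an unadjusted p under 0.05, against 3.86% and 5.99% of all genes, with 0 called and a median of -0.03. The 1 higher gene of the list, IFIT3, was detected on none of the 6 mutant arrays, so that count rests on background readings. The interferon-inducible GBP2 described above, detected on all 6 arrays and at 0.61 ± 0.10, is not a member of this list. MX1, an antiviral GTPase, was detected on both SPOP F102C arrays (5.15 and 5.48) and on none of the F133 arrays (4.56 to 4.75). It was at least 1.19-fold lower there, with a limma adjusted p of 0.109. EPSTI1, the other lower gene, was at -0.40 ± 0.14 (limma adjusted p = 0.371) and was detected on neither SPOP F133L array. The antiviral gene IFI44L, detected on all 6 arrays, was at 0.41 ± 0.21 and had an unadjusted p of 0.0713. IFIT2, an interferon-induced protein that binds viral RNA, read 5.41 and 5.63 with SPOP F102C and from 4.94 to 5.72 on the F133 arrays, a difference of -0.09 ± 0.21 (limma adjusted p = 0.938). Its level in all 3 mutants lay below control vector (7.03) and wild-type SPOP (7.09).

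Genes of G2/M and mitosis gave 0 higher and 4 lower of 32 at an unadjusted p under 0.05 (12.5%, against 5.99% of all genes), with 0 called and a median of -0.05. They were HMMR, a spindle-associated hyaluronan receptor (-0.30 ± 0.10, limma adjusted p = 0.374), the motor proteins CENPE (-0.35 ± 0.14, limma adjusted p = 0.452) and KIF11 (-0.34 ± 0.15, limma adjusted p = 0.491), and cyclin B1, CCNB1 (-0.26 ± 0.11, limma adjusted p = 0.481). HMMR read 10.49 and 10.63 with SPOP F102C and from 10.08 to 10.41 on the F133 arrays, with no overlap. For KIF11 the second SPOP F133L array (7.41) was far below the other 3 F133 arrays (7.82 to 8.04), and its second probe gave 0.09. The second probe of CENPE gave -0.12 and that of HMMR -0.48.

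FGFR3, SPOCK1, SDCBP2 and NQO1 were named from earlier results of these data. For FGFR3, a growth factor receptor, the F133 arrays overlapped those of SPOP F102C (-0.04 ± 0.15, limma adjusted p = 0.960). It read 6.89 and 6.73 with SPOP F102C and from 6.46 to 6.95 on the F133 arrays. SPOCK1, an extracellular matrix proteoglycan, was higher on all 4 F133 arrays (7.63 to 8.03) than on the SPOP F102C arrays (7.58 and 7.53), by 0.34 ± 0.11 (limma adjusted p = 0.318). SDCBP2, a scaffold protein that binds syndecans, read 6.75 and 6.65 with SPOP F102C and from 5.82 to 6.18 on the F133 arrays, a difference of -0.67 ± 0.15 (limma adjusted p = 0.133). Its 2 other probes that passed the filter gave -0.16 and 0.10, so the difference rested on 1 of 3 such probes. NQO1, a quinone reductase of the antioxidant response, read 9.67 and 9.56 with SPOP F102C and from 9.42 to 9.48 on the F133 arrays (-0.17 ± 0.12, limma adjusted p = 0.674).

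Each F133 mutant was also set against SPOP F102C alone. These 2 comparisons share the SPOP F102C arrays, so their values are given side by side. In SPOP F133V, 8 genes were called by limma at an adjusted p under 0.05: 5 rose (0.0409% of all genes), namely TRIM16L, CA1, THAP8, CD28 and RGS2, and 3 fell (0.0245%), namely DSE, IGSF5 and ZNF286A. In SPOP F133L, 0 genes were called higher (0%) and 0 lower (0%), with a lowest adjusted p of 0.0797, and 1122 had an unadjusted p under 0.05 (9.18%, against 11% in SPOP F133V). A call in SPOP F133V and none in SPOP F133L does not show that they differ, which is tested further below.

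RGS2 rose in SPOP F133V by 0.92 ± 0.10 (limma adjusted p = 0.0157), and its difference in SPOP F133L was 0.15 ± 0.10 (limma adjusted p = 0.731). CA1 rose by 1.11 ± 0.16 (limma adjusted p = 0.0342), with 0.59 ± 0.16 in SPOP F133L (limma adjusted p = 0.246). TRIM16L, a short relative of the ubiquitin ligase gene TRIM16 whose signal its probe may share, read 5.03 and 4.82 with SPOP F102C, 6.60 and 6.14 with SPOP F133V and 5.56 and 4.94 with SPOP F133L. It rose in SPOP F133V by 1.44 ± 0.20 (limma adjusted p = 0.0325), and the SPOP F133L arrays overlapped those of SPOP F102C. Its probe was detected on 4 of the 12 arrays, all of them mutant, so it passed the filter only through the groups compared.

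THAP8, a member of the THAP family of zinc finger DNA-binding proteins, was detected on both SPOP F133V arrays (5.79 and 5.56) and on no array of SPOP F102C (4.69 and 4.56) or SPOP F133L (4.56 on both). It was at least 1.61-fold higher in SPOP F133V than in SPOP F102C (limma adjusted p = 0.0157). CD28, a costimulatory receptor best known from T cells, was not detected with SPOP F102C (4.81 and 4.86) and read 5.96 and 5.62 with SPOP F133V, at least 1.75-fold higher (limma adjusted p = 0.0385). It lies outside the rule for naming genes and is given because it completes the 5. The 3 genes that fell were detected on neither SPOP F133V array: DSE was at least 1.97-fold lower, IGSF5 at least 1.74-fold lower and ZNF286A at least 1.41-fold lower (limma adjusted p = 0.0157, 0.0385 and 0.0157). Of the 8 calls only CA1 and RGS2 were detected on all 6 mutant arrays.

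**Figure D5:**
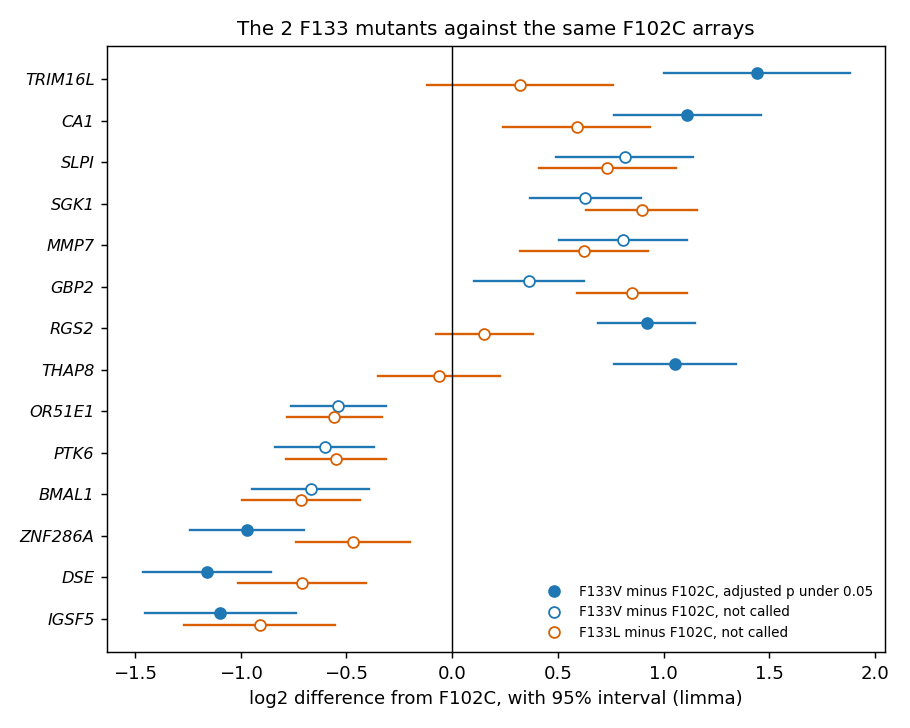
Points give the log2 difference of SPOP F133V (blue) and SPOP F133L (orange) from the same 2 SPOP F102C arrays with 95% intervals from limma, filled where the adjusted p was under 0.05. The 7 filled genes are all SPOP F133V points (CD28 is not drawn), and THAP8, RGS2 and TRIM16L have SPOP F133L intervals that include 0.

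These counts rested on single arrays. Without the second SPOP F133V array 59 genes were called in SPOP F133V (26 higher, 33 lower), without the first SPOP F133V or the first SPOP F102C array 0 were called, and without the second SPOP F102C array, or any 1 control vector or wild-type SPOP array, 3 to 5. A fit that included each array's count of detected probes, and a fit of the mutant arrays alone, called 0. Equal medians over all probes gave 13 higher and 1653 lower in SPOP F133V, with the median of all genes at -0.35. In SPOP F133L the authors' deposited log2 values gave 23 calls (15 higher, 8 lower), and 48 were called without background correction.

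The test of SPOP F133L against SPOP F133V asked directly whether the 2 substitutions at F133 differed. A single gene was called, THAP8, which fell in SPOP F133L by 1.12 on the log2 scale (0.00818% of all genes; SE 0.13; limma adjusted p = 0.0306), as a bound at least 1.58-fold, and 0 were called higher (0%). At an unadjusted p under 0.05 there were 1326 genes (10.8%). RGS2 came next among the named genes, with a difference of -0.77 ± 0.10 (limma adjusted p = 0.0556), followed by TRIM16L at -1.12 ± 0.20 (limma adjusted p = 0.0871). The differences of GBP2 (0.49 ± 0.12) and CA1 (-0.52 ± 0.16) had limma adjusted p-values of 0.192 and 0.283. DSE and ZNF286A were detected on both SPOP F133L arrays and on neither SPOP F133V array, and were at least 1.20-fold and 1.02-fold higher in SPOP F133L (limma adjusted p = 0.286 and 0.192). For SGK1 the difference was 0.27 ± 0.12, with a 95% interval of 0.00 to 0.53. The 95% intervals of the difference were -0.24 to 0.20 for OR51E1 and -0.40 to 0.24 for SLPI, both detected on all 6 mutant arrays. The call for THAP8 was kept in 3 of the 12 fits without 1 array, and without the second SPOP F133V array 59 genes were called (35 higher, 24 lower).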

How the data were processed

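The authors deposited, per the file headers, non-normalized bead intensity values with a detection p-value for each of 47323 probes on 12 Illumina arrays, and a table of processed values that behaves as log2 values (median 7.53 on every array); the sources used here do not say whether background had been subtracted earlier. The package lumi appears per the submitters' processing notes, without version or settings. Background correction and quantile normalization used limma's neqc (limma 3.58.1, R 4.3.3, offset 16), which took the negative-control distribution from the detection p-values. Probes with a detection p-value under 0.05 on at least 2 arrays were kept (23133). By the platform annotation, 30113 probes had 1 gene symbol, 8 had several and 17202 had none, and 0 symbols were updated against NCBI's gene table. The probe of highest mean stood for each gene, which left 12227.

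The 12 arrays were fitted together in limma, with a mean for each of the 5 groups (7 residual and 4.67 prior degrees of freedom). The contrast was the mean of SPOP F133V and SPOP F133L minus SPOP F102C, beside each mutant minus SPOP F102C and SPOP F133L minus SPOP F133V. P-values were adjusted over 12227 genes by the Benjamini-Hochberg method. Values after ± are standard errors of the fit unless marked SD, and the number of arrays limits the precision. The labels call the replicates biological, without naming separate cultures, so the spread behind the p-values, that between these arrays, may be technical. The script was tested on simulated data.

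Genes were named by rule: the 12 largest differences each way that were called without overlap, or, as none was, the 6 of lowest p each way; the 3 largest each way called without overlap in the other comparisons; a short set of SPOP, androgen-induced and mutant-specific genes; and up to 4 members of lowest p of each list described. Lists are described by counts and medians. The members, the 32 lists (815 genes, 625 tested) and the named set were chosen with earlier results of these data known. Replicate numbers were not used to pair the arrays. Same-numbered mutant arrays had correlations of -0.036 to 0.041 of their deviations from the group means, so no strong shared replicate effect was seen in the mutants. These values cannot show whether the replicates were run in pairs, and control vector and wild-type SPOP arrays were not checked. The alternatives changed background correction, normalization, filter, probe choice, arrays in the fit, prior and array weights, and left out each array.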

Additional observations from a re-analysis of the deposited data

Results flagged for a closer look

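NQO1 on the first SPOP F133V array, at 9.48, stood apart from the other 3 F133 arrays, of which the nearest was at 9.43 and which lay within 0.01 of each other. The gap was 0.90 of the range of the 4 arrays, above Dixon's critical value for 4 values, which chance alone passes in about 1 of 20 groups. All 65 named genes were screened in this way, so a flag by chance was likely, and NQO1 was the only gene flagged. The whole range of its 4 F133 arrays was smaller than the standard error of the difference from SPOP F102C (0.12).

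THAP8 differed between the F133 mutants under the same contrast against SPOP F102C. SPOP F133L minus SPOP F133V was -1.12 ± 0.13 on the log2 scale (limma adjusted p = 0.0306; range over the alternatives 0.0175 to 0.425), and both SPOP F133V arrays lay above both SPOP F133L arrays. The probe was detected on no SPOP F133L array.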

How the results depend on the processing

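The number of genes called by limma moved with most choices, and the cause was not tested. In the comparison of the F133 mutants with SPOP F102C, where 0 were called, the counts higher and lower were 15 and 16 with a normexp offset of 50, 22 and 32 without background correction, 0 and 38 with equal medians over all probes, 13 and 15 with the authors' deposited log2 values, 1 and 3 with detection p under 0.01, 8 and 1 among genes detected on all 6 mutant arrays, 1 and 1 with the median over a gene's probes, and 19 and 24 with an intensity trend and robust prior. It stayed at 0 in 7 of 15 whole-sample alternatives, the replicate block among them, in the 12 fits without 1 array, and with every filtered probe tested separately, an alternative chosen after seeing the data. For SPOP F133V against SPOP F102C, with 5 higher and 3 lower, there were 5 lower with a normexp offset of 50, 13 and 1653 with equal medians over all probes, 2 and 0 with equal medians over always-detected probes, 1 lower with the authors' values, 2 and 0 among genes detected on all 6 mutant arrays, and 8 and 8 with a trend and robust prior. That comparison had 0 and 0 with only the mutant arrays, with the mutant and wild-type SPOP arrays, and with detected probes as a covariate, and 0 to 26 higher and 0 to 33 lower without 1 array. For SPOP F133L against SPOP F102C, with 0 and 0, there were 15 and 9 with a normexp offset of 50, 25 and 23 without background correction, 15 and 8 with the authors' values, 2 higher with detection p under 0.01, 5 and 2 among genes detected on all 6 mutant arrays, 20 and 14 with a trend and robust prior, and 0 without any 1 array. For SPOP F133L against SPOP F133V, with 0 higher and 1 lower, there were 1 and 1 with a normexp offset of 50, 2 higher without background correction, 19 and 0 with equal medians over all probes, 3 and 4 without a filter, 3 and 3 with detection p under 0.01, and 1 and 3 among genes detected on all 6 mutant arrays. An unchanged count need not mean the same gene. THAP8, the 1 lower gene as reported, was called in 6 of the 25 alternatives that tested it. With the authors' values, and with a trend and robust prior, the 1 lower gene was not THAP8. The lower count was 0 with equal medians over always-detected probes, only the mutant arrays, the mutant and wild-type SPOP arrays, array weights, detected probes as a covariate, and every probe separately, and without 1 array the counts were 0 to 35 higher and 0 to 24 lower.

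Of 65 named genes, 53 kept the sign of their difference between the F133 mutants and SPOP F102C under every alternative, and 12 did not. None of the 65 was called in this comparison. Many of them were chosen by a low p in it, which favours a stable sign. With equal medians over all probes, which moved the median of all genes to -0.21, KLK3 was at -0.034, TMPRSS2 at -0.197, CDKN1A at -0.0637, SERPINI1 at -0.0208, KCNMA1 at -0.0717, AEN at -0.0169 and DDIT3 at -0.0245. With equal medians over always-detected probes SPOPL was at 0.0112, FGFR3 at 0.0165 and IFIT2 at 0.0556, with the median over probes FGFR3 at 0.0362, CDKN1A at -0.0124 and ZMAT3 at -0.0827, and with detected probes as a covariate SPOPL at 0.0501 and IFIT2 at 0.2632. Without 1 array SPOP ran from -0.125 to 0.0336, SPOPL from -0.241 to 0.1401, FGFR3 from -0.126 to 0.0483, TMPRSS2 from -0.0593 to 0.0629 and IFIT2 from -0.2807 to 0.1105. Less the median of all genes, the hypoxia and glycolysis median was 0.0396 as reported, 0.1281 with equal medians over either probe set, 0.1296 with detection p under 0.01, 0.1244 among genes detected on all 6 mutant arrays, 0.1228 with the median over probes and 0.1422 with the covariate. The luminal median was 0.1941 as reported, 0.0657 with the authors' values and 0.0249 with the covariate, and that of steroid receptor targets 0.1733 as reported and 0.0701 with the covariate. Without 1 array these ran from 0.0396 to 0.1087 (hypoxia and glycolysis), 0.0745 to 0.199 (luminal) and 0.0066 to 0.1054 (androgen-repressed). On that scale the medians of the p53, interferon and mitosis lists took both signs over the alternatives (-0.0142 to 0.0899, -0.0425 to 0.0298 and -0.0983 to 0.0067).

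The replicate block left the counts at 0 and 0 for the F133 mutants, 4 and 2 for SPOP F133V, 0 and 0 for SPOP F133L and 0 and 1 between the F133 mutants. Over the genes named or called in the 4 comparisons and all alternatives that tested them, 1766 values kept their direction and their side of the threshold, 119 lost a call, 62 gained one and 26 changed sign. Most of the 1766 were of genes uncalled as reported that stayed uncalled. Only the 8 calls in SPOP F133V and that of THAP8 between the F133 mutants could be lost. The 8 were kept in between 5 of 26 alternatives (CD28) and 20 of 27 (RGS2). A slide block was not run, since the files name no slide. Dim genes were limited by signal over background, with 8977 of 12227 genes detected on all 6 mutant arrays.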

Other observations

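In the lists that the account above leaves out, 0 genes were called by limma at an adjusted p under 0.05. Their counts at an unadjusted p under 0.05 stand against 3.86% of all genes higher and 5.99% lower. In the list of NRF2 targets, genes of the antioxidant response, 2 of 17 were higher at that p (11.8%) and 0 lower. They were SLC7A11, the cystine importer, at 0.60 ± 0.14 and AKR1C2, a reductase that inactivates dihydrotestosterone, at 0.41 ± 0.09 (limma adjusted p = 0.157 and 0.138). SLC7A11 is also 1 of 2 higher genes among 28 targets of ATF4 and amino acid supply. AKR1C2 differed from SPOP F102C by 0.10 in SPOP F133V and by 0.71 in SPOP F133L. These genes were named after their values were seen.

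No gene of the proteasome, cholesterol synthesis, fatty acid synthesis or ER chaperone lists (27, 18, 19 and 20 tested) had an unadjusted p under 0.05 in either direction. The proteasome list spanned -0.21 to 0.13 and the mitochondrial respiratory chain list, with 1 higher and 1 lower of 42, spanned -0.25 to 0.28. Targets of WNT and TGF-beta had a median of 0.14 over 15 genes, with 1 higher (AXIN2, 0.40 ± 0.17) and 0 lower.

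The 6619 probes of the filtered set that the annotation does not tie to a single gene gave 0 calls by limma, and 637 of them (9.62%) had an unadjusted p under 0.05, beside 8.68% of the 16514 probes with 1 gene symbol.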
